A study of Mus musculus with 4 samples.

Results

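Lymphatic endothelial cells were described in single-cell transcriptomes of gonadal white fat, taken from mice aged 18 months. Members were chosen by their own counts of 4 genes. A kept barcode was a member where Prox1, Mmrn1, Reln and Flt4 summed to at least 4 UMIs (unique molecular identifiers, the tags by which captured transcripts are counted), at least 2 of these genes were detected, and Ptprc and Pdgfra had at most 1 UMI each. The rule found 290 members among 14982 kept cells. All mice carried p16-CreERT2 and R26-LSL-tdTomato, in which the p16 (Cdkn2a) promoter drives a Cre recombinase that tamoxifen activates, and Cre then switches on the red protein tdTomato for good. Tamoxifen had been given to the mice, so every library shares the genotype, the treatment and the age. Cells of the stromal vascular fraction, which is what remains of fat after the adipocytes are removed, were sorted by CD45, a leukocyte surface protein, and by tdTomato. The labels name the sorts CD45- Tom+ and CD45- Tom-, which lack CD45, and CD45+ Tom+ and CD45+ Tom-, which carry it. A single library stood for each of these 4 groups. The labels do not give the number of animals behind it, and cells were also stained for CD31, an endothelial surface protein, with no gate on it given. Because there is 1 library per group, no test between groups is possible and every difference lacks a replicate check.

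Lymphatic vessels drain fluid, macromolecules and immune cells from tissue, and in fat they run beside the blood vessels. Prox1, a homeodomain transcription factor, sets and keeps the lymphatic fate of the endothelium. Flt4 encodes VEGFR-3, the receptor for the lymphatic growth factors VEGF-C and VEGF-D. Mmrn1 encodes a multimerin of the vessel matrix and Reln the secreted glycoprotein reelin. Initial capillaries take up fluid through loosely joined, Lyve1-bearing cells that secrete the chemokine CCL21, which draws dendritic cells and T cells. Collecting vessels downstream carry valves and hold less Lyve1.

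The 4 libraries held between 3429 and 11255 barcodes and between 64083756 and 139397501 UMIs. A barcode was kept where its genes numbered over 1000 but under 7000 and its mitochondrial share was below 8%. There were 4145 and 4038 kept cells under the labels CD45- Tom+ and CD45- Tom-, then 1981 and 4818 under CD45+ Tom+ and CD45+ Tom-, and values given without names follow this order. The CD45 labels did not separate leukocytes. Macrophages, chosen by at least 4 UMIs over Csf1r, Adgre1, Cd68 and C1qa with a Ptprc UMI, numbered 1280 (Tom+) and 810 (Tom-) under the label CD45-, against 598 and 1040 under the label CD45+. Libraries are therefore named by their labels. The protocol shared by the samples lists the CD45- Tom- sort in the place of CD45+ Tom-, so the latter name rests on the sample title and group label. Barcode sequences recurred between libraries, most often between the Tom- libraries, which had 4394 in common, but no pair of libraries had a member barcode in common. A member barcode occurred in any form in another library for 10, 1, 3 and 4 members in the same order. Intervals given here are at the 95% level and cover only the error of counting.

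Members were mostly in the libraries labelled Tom+. There were 169 members in the library labelled CD45- Tom+, which is 4.08% of its kept cells (exact binomial interval 3.50 to 4.72). The library labelled CD45+ Tom+ held 94, or 4.75% (3.85 to 5.78). The Tom- libraries held 6 members, 0.149% (0.0545 to 0.323), under the label CD45- and 21, 0.436% (0.270 to 0.665), under the label CD45+. Both intervals of the Tom+ libraries lie above both of the Tom- libraries, and the intervals of the Tom+ pair overlap. That members lay mostly in the Tom+ libraries was known when they were chosen, so these intervals describe the libraries and are no test. Blood endothelial cells were chosen by at least 4 UMIs over Flt1, Cdh5, Kdr and Ptprb with at most 1 UMI over the lymphatic rule's genes. They were 1.88% and 2.22% of the Tom+ libraries labelled CD45- and CD45+, and 2.82% and 2.76% of the Tom- libraries in the same order. The intervals of all 4 libraries overlap, that of CD45- Tom+ (1.49 to 2.34) only narrowly with those of the Tom- libraries. Of all endothelial cells so counted, lymphatic ones made up 68.4% and 68.1% in the Tom+ libraries and 5.00% and 13.6% in the Tom- libraries. A share among sorted cells depends on what the sort admitted, so a low share does not give the number of such cells in the tissue.

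**Figure D1:**
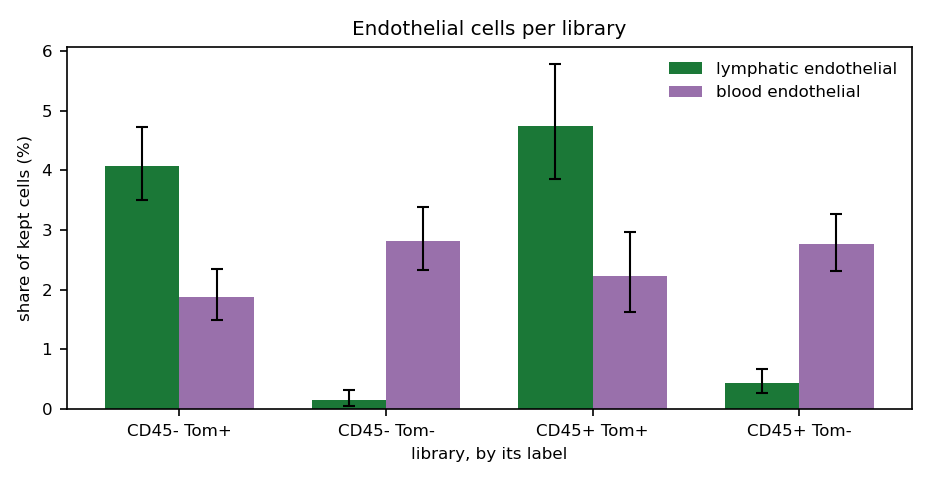
Share of kept cells (%, vertical axis) that were lymphatic endothelial (green) and blood endothelial (purple) in each of the 4 libraries; bars start at 0 and error bars are exact binomial 95% intervals. Lymphatic endothelial cells reach 4.08% and 4.75% in the Tom+ libraries and stay at 0.149% and 0.436% in the Tom- libraries, while blood endothelial cells lie between 1.88% and 2.82% in all 4.

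Most members were far above the threshold that chose them. The median member held 103, 83.5, 98 and 116 UMIs over the rule's 4 genes in the order of the libraries above, and all 4 genes were detected in 162, 6, 81 and 20 members. Just inside the threshold, 3, 0, 8 and 1 members had 4 to 7 UMIs, and just outside it 9, 5, 5 and 7 kept cells had 3. The 11 members with 4 to 7 UMIs in the Tom+ libraries did not look like the rest. Summed over them, Ccl21a was at 229 CPM (UMIs of a gene per 1000000 UMIs of the cells named) against 11028 in the 252 members with 8 UMIs or more. Vwf, the von Willebrand factor of blood vessels, was at 3150 against 43.0 CPM in the same cells, and Flt1, the receptor VEGFR-1 of blood endothelium, at 563 against 24.6. Their median depth was 4576 UMIs against 15376.5. Vwf and Flt1 were thus higher in these few cells. A further 36, 0, 7 and 3 kept cells reached 4 UMIs but had more than 1 UMI of Ptprc or Pdgfra and were not members. Their Ccl21a was at 6713 CPM under the label CD45- Tom+ and 3836 under CD45+ Tom+, and their Lyve1 at 2466 and 2810. They count among the other kept cells in the comparisons below, which lowers the ratios of members to those cells for such genes.

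Markers of most other cell types were low in the members. In the library labelled CD45- Tom+, the 11 macrophage markers summed to 322 CPM in members and 5867 in the other kept cells, and in that labelled CD45+ Tom+ to 302 and 5544, with none of the 11 at 0. The 12 markers of adipose progenitors summed to 252 and 379 CPM in members against 4957 and 5082 in the others, with 0 and 2 of the 12 at 0. Pdgfra, which the rule limits, was at 0.639 and 2.49. The 9 plasma cell markers, mostly immunoglobulins, were the exception in size, with 27679 and 30485 CPM in members against 266825 and 271507 in the others. Immunoglobulin genes took 2.78% and 3.05% of member UMIs but 27.0% and 27.5% of those of the other cells. The median gene was 0.69 and 0.71 higher in members on the log2 scale, 0.24 and 0.26 with immunoglobulin genes left out, and -0.06 and -0.05 with TMM factors, a scaling that is less moved by a few large genes. Both scalings are given below. The 9 mural markers summed to 70.6 and 96.4 CPM in members, near the 71.6 and 104 of the others, with 3 and 2 of the 9 at 0. The 10 mesothelial markers summed to 295 and 299 CPM in members, of which Gpm6a, a neuronal membrane glycoprotein gene, made up 290.2 and 294. Markers of 7 other types (mast cells, B cells, T cells, neutrophils, adipocytes, Schwann cells and red cells) each summed to at most 167 CPM in members. Their part in the results below was not tested.

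Members in the Tom- libraries were few and most were scored as doublets. Scrublet, which compares each cell with simulated mixtures and here marked 0.8% of cells per 1000 barcodes, marked 5 of the 6 members under the label CD45- Tom- and 20 of the 21 under CD45+ Tom-, but 5 of 169 and 3 of 94 in the Tom+ libraries. Of the blood endothelial cells it marked 14 of 114 and 7 of 133 in the Tom- libraries. The unmarked member under the label CD45- Tom- had 48929 UMIs, with 19 of Prox1, 117 of Mmrn1, 24 of Reln and 76 of Flt4. The unmarked one under CD45+ Tom- had 2 of Prox1 and 2 of Flt4 and none of Mmrn1, Reln, Ccl21a or Lyve1, beside 24 of Pecam1. The marked members had between 25 and 110 UMIs of Mmrn1 each, and Ccl21a was at 10565 and 11531 CPM over all members of the Tom- libraries labelled CD45- and CD45+. Without the marked cells the shares were 4.22% and 4.72% in the Tom+ libraries labelled CD45- and CD45+, and 0.0272% and 0.0228% in the Tom- libraries. Whether the marked cells are doublets was not tested. With 6 and 21 members these libraries enter the counts, the Ccl21a values and the reporter values but no comparison of other genes.

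Ccl21a, a marker that the rule did not use, was the leading lymphatic gene of the members. It encodes the chemokine CCL21 and lies at chromosome 4, 42772860 to 42773993 of mm10 (GRCm38; ENSMUSG00000094686), on the minus strand. Members of the library labelled CD45- Tom+ held 35784 of its UMIs, 11426 CPM (exact Poisson interval 11308 to 11545), and those of CD45+ Tom+ held 15257, 9490.0 CPM (9340.0 to 9642). Of all Ccl21a UMIs in kept cells, members carried 83.9%, 97.1%, 94.0% and 94.2% in the order of the libraries. The annotation also holds Gm21541 (ENSMUSG00000094065, chromosome 4, 41903610 to 41904743), a near copy. The transcripts Ccl21a-201 and Gm21541-201 both have 870 bases, with the coding part at bases 76 to 474, and differ at 6 positions. Counted from 1 at the transcript's 5′ end, with the Ccl21a base first, the coding differences are T159A in codon 28 and C269T in codon 65. The stretches around them show how little sets the copies apart (bases 145 to 173 and 255 to 283, with the differing base in capitals):
Ccl21a, bases 145 to 173: agtgatggagggggTcaggactgctgcct
Gm21541, bases 145 to 173: agtgatggagggggAcaggactgctgcct
Ccl21a, bases 255 to 283: ggcaatcctgttctCaccccggaagcact
Gm21541, bases 255 to 283: ggcaatcctgttctTaccccggaagcact

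The members' UMIs were assigned to Ccl21a in nearly all cases. Gm21541 had 938, 10, 421 and 86 UMIs in members, 2.55%, 0.95%, 2.69% and 1.80% of the pair's total in the order of the libraries. The annotated copies Ccl21b, Ccl21c, Gm13304, Gm10591 and Gm21953 had 0 in every library, as did Ccl19, the other ligand of the receptor CCR7. Reads in stretches that the copies share cannot be told apart, so the values of Ccl21a are uncertain with respect to these copies.

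The lymphatic identity genes were high in both Tom+ libraries, and 13 of the 14 listed were at least 2-fold lower in blood endothelium under CD45- Tom+. Prox1 (ENSMUSG00000010175, chromosome 1, 190118035 to 190170714) was at 1027 and 989 CPM in members labelled CD45- Tom+ and CD45+ Tom+, Mmrn1 (ENSMUSG00000054641, chromosome 6, 60924976 to 60989378) at 3769.9 and 3384 CPM, Reln (ENSMUSG00000042453, chromosome 5, 21884454 to 22344702) at 936 and 894 CPM and Flt4 (ENSMUSG00000020357, chromosome 11, 49609263 to 49652739) at 1060.1 and 899 CPM. These 4 chose the members, and the rule for blood endothelial cells caps them, so their ratios are fixed by the choice. Among genes the rule did not use, Lyve1 (ENSMUSG00000030787, chromosome 7, 110850607 to 110863239), which encodes a hyaluronan receptor, was at 3431 and 3657 CPM. Blood endothelial cells of the library labelled CD45- Tom+ had 4.99 CPM and macrophages, some of which are known to carry LYVE1, had 61.3. Nts, which encodes neurotensin, was at 1534 and 1117 CPM and at 0.999 in blood endothelium. Fxyd6, a regulator of the sodium pump, was at 485 and 476 CPM and had no UMI in blood endothelium. Tbx1, a transcription factor of lymphatic development, was at 145 and 134 CPM, again with no UMI in blood endothelium. The receptor subunit gene Nrp2, by contrast, was shared, with 679 and 599 CPM against 241, and so was Sox18, a factor that acts upstream of Prox1, with 347 and 335 CPM against 219. Pdpn, which encodes podoplanin, was at 253 and 199.7 CPM in members but at 263 in progenitors, so it did not set members apart from stroma. All 14 genes of the list, 4 of them the rule's own, were at least 2-fold higher than in the other kept cells of both libraries, where 34.0% of all 2821 genes tested were, and 14 of 14 were with TMM factors, where 16.1% of 2761 were. In the other direction, 8.93% of all genes tested were at least 2-fold lower in both, and 17.2% with TMM factors. These shares are the background for the counts of each list below against the other kept cells. In the single libraries the genes at least 2-fold higher were 36.5% of 2938 and 37.0% of 2932 tested under the labels CD45- Tom+ and CD45+ Tom+, and those at least 2-fold lower 9.56% and 9.31%. A gene counts as tested where the mean of the compared groups was at least 50 CPM.

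**Figure D2:**
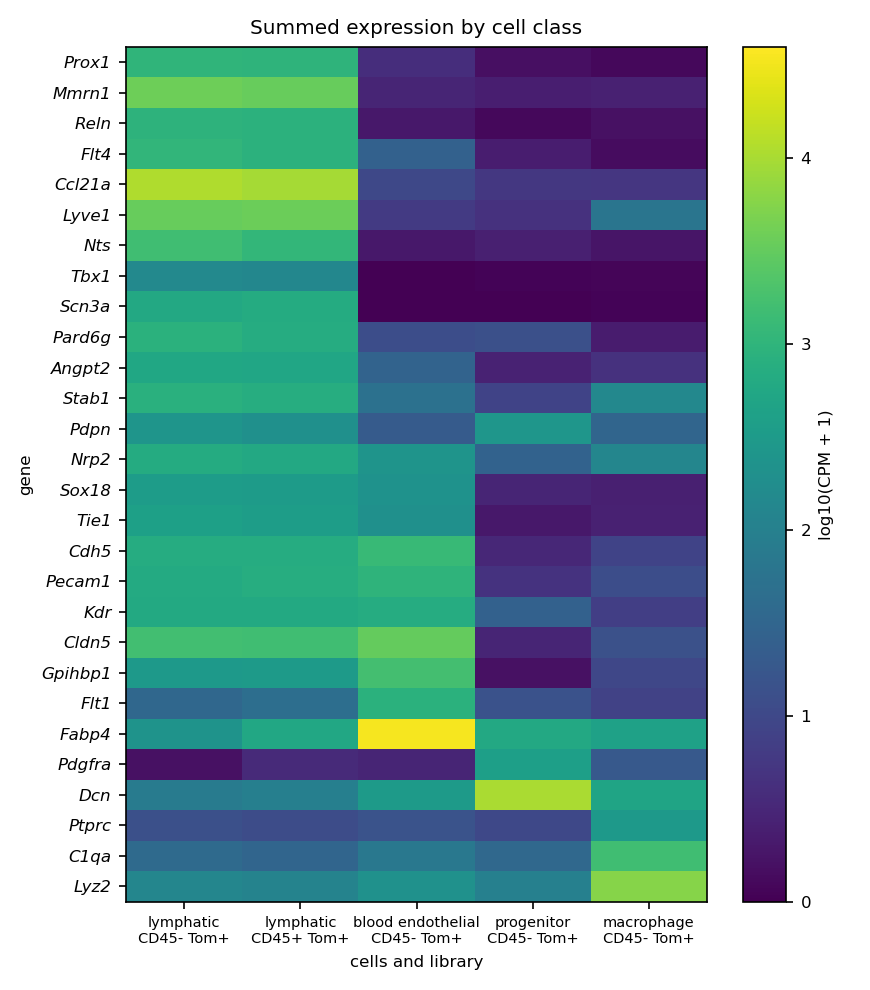
Expression of 28 genes (rows) summed over the lymphatic endothelial cells of both Tom+ libraries and over the blood endothelial cells, progenitors and macrophages of the library labelled CD45- Tom+ (columns); colour is log10(CPM + 1). Ccl21a reaches 11426 CPM in the first lymphatic column and 8.99 in the blood endothelial one, whereas Fabp4 reaches 33794 CPM in the blood endothelial column.

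The 25 genes with the largest ratios to the other cells held both known lymphatic genes and genes best known from neurons. Taken among genes of at least 50 CPM in members of both Tom+ libraries and ranked by the smaller of the pair of library ratios, they included Mmrn1, Nts, Ccl21a, Tbx1, Slc38a4, Reln, Prox1, Flt4, Scn3a, Gap43, Sgsm1, Klhl4, Apba2, Tc2n, Sh3gl3, Pard6g, Angpt2, Adgrg3, Rspo3, Clca3a1, Pgf, Dmtn, Lyve1 and Hoxd9, and the smallest log2 ratio among those named was 6.04. Scn3a encodes an alpha subunit of a voltage-gated sodium channel. Scn3a was at 599 and 681 CPM, against 4.25 and 1.79 in the other cells. It had no UMI in the 78 blood endothelial cells. Gap43, a growth cone protein gene, was at 114 and 147 CPM, and Apba2, which encodes a synaptic adaptor, at 160.0 and 151 CPM. Pard6g, a cell polarity gene, was the most abundant of those outside the marker list, with 850.3 and 713 CPM against 11.0 in blood endothelium. Slc38a4, an amino acid transporter gene, was at 197 and 152 CPM with no UMI in blood endothelium, and Klhl4 at 315 and 311 CPM against 26.0. Besides Ccl21a, Nts and Reln, secreted signals in the list included Angpt2 (557 and 531 CPM), Pgf (127 and 159 CPM), a VEGF family ligand, and Rspo3 (100.3 and 79.0 CPM), an enhancer of Wnt signalling. These ratios are a description, since the members were chosen on counts of the same cells.

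Transcription factors known from lymphatic and endothelial development formed the next group. Of 26 listed, 16 were at least 2-fold higher and 1 at least 2-fold lower of 17 tested (with TMM factors, 12 and 1 of 16), and Prox1, a gene of the rule, is among the higher ones. Nr2f2 (COUP-TFII), a partner of PROX1, was at 698 and 673 CPM against 168 in blood endothelium, and Nfatc1, a factor of lymphatic valve and vessel patterning, at 397 and 348 CPM against 65.9. Maf was at 852 and 679 CPM against 29.0 in blood endothelium, although progenitors had 344. Foxp2, a forkhead factor, was at 154 and 136 CPM against 2.0. Foxc2, which valves need, was low at 68.3 and 57.2 CPM, with 1.09 and 1.65 in the other cells. The flow-responsive factors Klf4 and Klf2 were abundant, at 4114 and 3664 CPM and at 2417 and 1753 CPM, but blood endothelium had 1636 and 1606 CPM of them. Sox17, an arterial factor, was at 8.62 and 8.71 CPM against 247 in blood endothelium, a log2 ratio of -4.84 (-5.47 to -4.26).

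Members expressed the common endothelial genes and had less of most blood endothelial genes than blood endothelium did. Of the 20 pan-endothelial genes, 15 were at least 2-fold higher and 0 at least 2-fold lower of 15 tested (with TMM factors, 12 and 0 of 12). Cdh5, which encodes VE-cadherin, was at 717 and 690.4 CPM against 26.5 and 33.9 in the other cells, Pecam1, which encodes CD31, at 650.4 and 725 CPM, and Egfl7 at 792 and 737 CPM. Vwf, also among the higher before TMM scaling, was at 105 and 141 CPM against 11.2 and 16.8 in the other cells, but at 43.0 CPM over the 252 members with 8 rule UMIs or more. Against the blood endothelial cells of the library labelled CD45- Tom+, 11.0% of 3396 genes tested were at least 2-fold higher in members and 9.39% at least 2-fold lower, and the median gene differed by 0.11 on the log2 scale. Of the pan-endothelial genes, 2 higher and 6 lower of 20 tested were past that fold. The higher ones were Ecscr and Calcrl, which encodes the receptor for adrenomedullin, at 295 against 65.9 CPM, and the lower ones included Cd34, at 43.4 against 274, and Tek, the angiopoietin receptor TIE2, at 78.9 against 166. Of the 23 blood endothelial genes, 0 higher and 16 lower of 19 tested were past the fold in this comparison. Flt1 was at 33.5 against 881 CPM, a log2 ratio of -4.72 (-5.02 to -4.42). Flt1 and Ptprb, both among the lower genes, were in the rule for blood endothelial cells, which fixes their direction. Cdh5 and Kdr of the pan-endothelial list were in that rule as well. Rgcc, a capillary gene, was at 19.2 against 839, and Car4, a carbonic anhydrase gene of capillaries, at 9.58 against 313. Outside that list, Cxcl12, a chemokine of arterial and stromal cells, was at 34.8 against 919. Some blood endothelial genes were nevertheless measurable. Gpihbp1, which carries lipoprotein lipase to the capillary surface, was at 302 and 317 CPM against 27.9 and 31.6 in the other cells and 1655 in blood endothelium. Plvap, which builds the diaphragms of fenestrae and caveolae, was at 347 and 299 CPM against 289, and did not reach 2-fold between the endothelia. Compared with all other kept cells, 7 were at least 2-fold higher and 1 at least 2-fold lower of 10 tested (with TMM factors, 7 and 3 of 10) on the blood endothelial list. The blood endothelial class of the library labelled CD45- Tom+ also held more mural and stromal transcripts than members did. Against it, 0 higher and 4 lower of 4 mural markers tested were past the fold in members. Of the adipose progenitor markers it was 0 higher and 5 lower of 6. Whether such transcripts add to values of that class, as for Cxcl12, was not tested. No blood endothelial comparison was made in the library labelled CD45+ Tom+, which held 44 such cells where 50 were required.

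Receptors of lymphangiogenic signalling were expressed in members, while the ligand genes Vegfc and Vegfd were higher in progenitors and Angpt2 was high in members. Of 32 listed genes, 12 were at least 2-fold higher and 1 at least 2-fold lower of 13 tested (with TMM factors, 10 and 2 of 14), and against blood endothelium 5 higher and 3 lower of 16. Flt4, a gene of the rule, is among the higher in both. Among receptors, Flt4 had a log2 ratio to blood endothelium of 5.35 (4.8 to 5.97), while Kdr, which encodes VEGFR-2, was at 615 against 690.2 CPM, a log2 ratio of -0.17 (-0.29 to -0.04). Flt4 and Kdr belong to the rules of these classes. Of the co-receptors, Nrp2 was at 679 against 241 and Nrp1 at 20.8 against 484, so the neuropilins lay on opposite sides. Vegfc was at 0.319 CPM in members and 40.5 in progenitors, and Vegfd at 2.24 and 186. Ccbe1, needed to activate VEGF-C, was at 0.319 in members and 61.4 in progenitors. Angpt2, an angiopoietin that lymphatic vessels need, was at 557 and 531 CPM against 28.0 in blood endothelium, and Tie1 at 405 and 359 CPM against 205. Itga9, an integrin subunit gene of valves, was at 182 and 148 CPM against 8.99. The list of capillary and collecting vessel genes gave similar counts, in which 12 were at least 2-fold higher and 0 at least 2-fold lower of 13 tested (with TMM factors, 10 and 0 of 12). Reln, a gene of the rule, is among the higher by both scalings. Piezo2, which encodes a mechanically gated channel, was at 171 and 203 CPM against 14, and Gja1, which encodes connexin 43, at 394 and 386 CPM against 155.

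Chemokine genes split between Ccl21a and the rest. On this list 3 were at least 2-fold higher and 7 at least 2-fold lower of 10 tested (with TMM factors, 2 and 7 of 9). The lower genes were Cxcl12, Ccl2, Ccl5, Ccl7, Cxcl1, Cxcl2 and Ccrl2. Ccl2, a ligand that draws monocytes, was at 40.6 and 36.1 CPM against 459 and 419 in the other cells. The scavenging receptor genes stood out against blood endothelium. Ackr2, which clears inflammatory chemokines, was at 116 and 137 CPM with no UMI there, and Ackr3, which binds CXCL12 and adrenomedullin, at 191 and 158 CPM against 72.9. Ackr4, a scavenger of CCL21, had 11 and 1 UMIs. Il7, a survival factor of lymphocytes, was at 120.1 and 111 CPM against 2.18 and 1.98 in the other cells and 0.999 in blood endothelium. Stab1, a scavenger receptor gene shared with macrophages (139 CPM), was at 831 and 725 CPM. Mrc1, the mannose receptor, was at 199 and 218 CPM against 19.0 in blood endothelium and 376 in macrophages. Adhesion genes of inflamed vessels were low, with Vcam1 at 23.9 and 12.4 CPM and Selp at 36.4 and 31.7 CPM, while Icam1 was at 178 and 211 CPM. The adhesion and scavenging list gave counts in which 5 were at least 2-fold higher and 1 at least 2-fold lower of 9 tested (with TMM factors, 4 and 2 of 9). Spns2, the exporter of sphingosine-1-phosphate that guides lymphocytes out of tissue, was at 155 and 140.0 CPM against 53.9 in blood endothelium, and on that pathway's list 3 were at least 2-fold higher and 0 at least 2-fold lower of 4 tested (with TMM factors, 3 and 1 of 5).

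Receptors and mediators of TGF-beta and BMP signalling were high in members. Of 32 listed genes, 13 were at least 2-fold higher and 0 at least 2-fold lower of 17 tested (with TMM factors, 10 and 0 of 17), and against blood endothelium 8 higher and 2 lower of 19. Tgfbr2, the type II receptor, was at 770.1 and 733 CPM against 164 in blood endothelium, a log2 ratio of 2.23 (2.0 to 2.47). The transducers Smad1 and Smad5 were at 754 and 730.2 CPM and at 224 and 201 CPM, against 213 and 80.9. Ltbp4, which holds latent TGF-beta in the matrix, was at 847 and 842 CPM against 337. Acvrl1, a BMP9 receptor of blood endothelium, was lower, at 45.0 against 125, while the BMP target Id1 was at 1377 and 1286 CPM against 1433. On the Notch list 6 were at least 2-fold higher and 0 at least 2-fold lower of 7 tested (with TMM factors, 4 and 1 of 6). Hes1, a Notch target, was at 1843 and 1670.1 CPM against 623, and Dtx1, a Notch pathway ubiquitin ligase gene, at 191 and 193 CPM with no UMI in blood endothelium. Guidance genes gave counts in which 11 were at least 2-fold higher and 0 at least 2-fold lower of 11 tested (with TMM factors, 9 and 2 of 11). Sema3a and Sema3d, secreted repellents, were at 168 and 147 CPM and at 263 and 222 CPM against 5.99 and 2.0. Ntn1, which encodes netrin-1, was at 436 and 325 CPM against 21.0, and its receptor gene Unc5b at 173 and 178 CPM against 42.0. Sema3g, a semaphorin of arteries, had no UMI under the label CD45- Tom+, where 3 counts would be 0.958 CPM, against 156 in blood endothelium, so it was at least 163-fold lower. All 9 junction genes tested were at least 2-fold higher than in the other cells by both scalings, Cldn5 among them at 1641 and 1554 CPM, but Cldn5 was at 3246 in blood endothelium.

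Fatty acid genes that mark adipose capillaries were low in members. On the lipid handling list 2 were at least 2-fold higher and 6 at least 2-fold lower of 12 tested (with TMM factors, 2 and 8 of 12), and against blood endothelium 1 higher and 11 lower of 15. Fabp4, a fatty acid carrier, was at 234 and 574 CPM against 33794 in blood endothelium. Cd36, a fatty acid uptake receptor, was at 262 and 395 CPM against 5014, and Scarb1, the HDL receptor, at 15.3 against 405. Abca1, which exports cholesterol, was the exception at 663 and 595 CPM against 149. Apoe was at 578 and 459.7 CPM, against 3433 and 3477 in the other cells and 7482 in macrophages. Matrix genes went both ways, in that 15 were at least 2-fold higher and 10 at least 2-fold lower of 28 tested (with TMM factors, 11 and 11 of 29), with the rule's genes Reln and Mmrn1 among the higher. Basement membrane genes also went both ways against blood endothelium. Lama4 was at 287 and 317 CPM against 91.9, while Col4a1 was at 483 against 1225, and Lamb1, Lamc1, Nid1 and Hspg2 did not reach 2-fold. The fibrillar collagens were low, with Col3a1 at 31.0 and 70.9 CPM against 1007 and 1076 in the other cells. On the coagulation and complement list 7 were at least 2-fold higher and 3 at least 2-fold lower of 15 tested (with TMM factors, 4 and 4 of 13), and the first count includes Vwf. F8, which encodes coagulation factor VIII, was at 132 and 118 CPM against 6.99. The factor is known to come from endothelium. Of the antigen presentation genes 0 were at least 2-fold higher and 4 at least 2-fold lower of 11 tested (with TMM factors, 0 and 5 of 11); Cd74 was at 177 and 216 CPM against 2061 and 1868. Members had less of this MHC class II chaperone than macrophages, which had 2707, and blood endothelium had 198. Genes that enzymatic dissociation is known to induce gave counts in which 4 were at least 2-fold higher and 0 at least 2-fold lower of 18 tested (with TMM factors, 0 and 2 of 18), and interferon-stimulated genes counts in which 1 was at least 2-fold higher and 0 at least 2-fold lower of 6 tested (with TMM factors, 1 and 1 of 6). On the list of caveolae, iron and nitric oxide genes 4 were at least 2-fold higher and 2 at least 2-fold lower of 8 tested (with TMM factors, 4 and 3 of 8), with Cavin2 at 1181 and 1241 CPM, and on that of interleukins and cytokines 3 were at least 2-fold higher and 0 at least 2-fold lower of 7 tested (with TMM factors, 1 and 1 of 6). For comparison, 34.0% of all genes tested were higher in both libraries and 8.93% lower (with TMM factors, 16.1% and 17.2%).

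The reporter that defines the sort was high in members of both Tom+ libraries. tdTomato (listed as ENSMUSG00000999992, with no position) was at 1459 (1417 to 1502) CPM in members under the label CD45- Tom+ and 1486 (1427 to 1547) under CD45+ Tom+. The other kept cells had 689 and 696, blood endothelial cells under CD45- Tom+ 552, progenitors 709.7 and mesothelial cells 852. The log2 ratio to the other cells was 1.08 and 1.09, or 0.42 and 0.43 with TMM factors, so it was past 2-fold only before that scaling. The ratio to blood endothelium was 1.40 (1.27 to 1.53). In the Tom- libraries members held 3 UMIs in 6 cells, 30.4 (6.27 to 88.8) CPM, under the label CD45- and 47 UMIs in 21 cells, 115 (84.7 to 153) CPM, under CD45+, where the other cells had 16.1 and 19.2. A UMI of tdTomato was found in 13 of the 21. After each cell was thinned to 5000 UMIs, 90.9% and 87.2% of Tom+ members had a tdTomato UMI. So had 81.9% and 80.5% of the other kept cells of the same libraries, which the sort also chose by tdTomato. In the Tom- libraries, 8.43% and 9.50% of the non-member cells had one, which serves as background.

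Cdkn2a, the gene whose promoter drives the Cre, was sparse in members. It encodes the cell cycle inhibitor p16 (ENSMUSG00000044303, chromosome 4, 89274471 to 89294653). Members under the label CD45- Tom+ had 39 UMIs in 17 of 169 cells, 12.5 (8.85 to 17.0) CPM, against 6.48 in the other cells. Under CD45+ Tom+ there were 21 UMIs in 7 of 94 cells, 13.1 (8.09 to 20) CPM against 6.97. The highest member held 10 of the 39 and 8 of the 21 UMIs, an unevenness that the Poisson intervals leave out. These CPM values are without TMM factors, and Cdkn2a was below the 50 CPM required of a compared gene. In the Tom- libraries, 5 UMIs lay in 1 member under CD45- and 1 UMI in 1 member under CD45+, and the other cells had 7.14 and 7.52 CPM. Progenitors of the Tom+ libraries had 15.3 and 17.6 CPM, and blood endothelial cells under CD45- Tom+ had 3 UMIs. Mesothelial cells had 22.6 and 22.2 CPM in the same libraries. Thinned to 5000 UMIs, 6.10% of members under CD45- Tom+ had a Cdkn2a UMI (interval 2.96 to 10.9), beside 1.52% of macrophages, 4.48% of progenitors and 5.71% of mesothelial cells. Under CD45+ Tom+ it was 2.56% of members (0.312 to 8.96), beside 2.25%, 8.74% and 10.9% of the same classes. Median depth before thinning was 15396 and 14714 UMIs in members and 25956 and 23190.5 in macrophages. The share of members was above that of macrophages under CD45- Tom+ and near it under CD45+ Tom+. Cdkn1a, which encodes the inhibitor p21, was at 291 and 231 CPM in the Tom+ members against 96.8 and 99.2 in the other cells, but at 700.2 in blood endothelium. It was at least 2-fold higher than in the other cells of both libraries before TMM scaling but not with it. On the senescence list 9 were at least 2-fold higher and 2 at least 2-fold lower of 18 tested (with TMM factors, 2 and 2 of 18). Of all genes tested, 34.0% were higher and 8.93% lower in both libraries (with TMM factors, 16.1% and 17.2%), so with TMM factors the list did not stand out. By both scalings the higher genes of the list were Plaur (125 and 109 CPM) and Serpine2 (193 and 167 CPM), which encode the urokinase receptor and a protease inhibitor. The lower ones were Ccnd2 and Igfbp6.

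**Figure D3:**
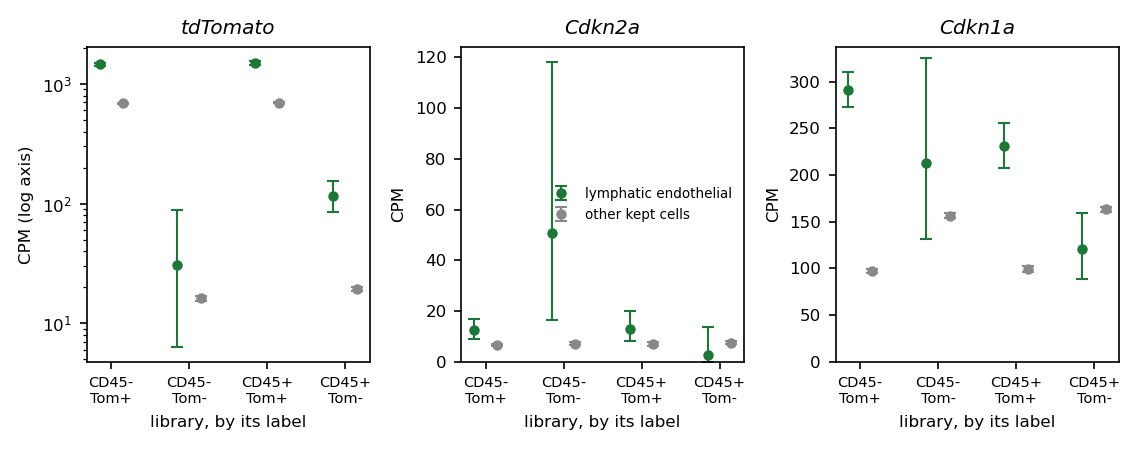
tdTomato (log axis), Cdkn2a and Cdkn1a in CPM (vertical axes) for lymphatic endothelial cells (green) and all other kept cells (grey) of each library, with exact Poisson 95% intervals. tdTomato of members is 1459 and 1486 in the Tom+ libraries, above the grey points, while the intervals of Cdkn2a are wide, most of all for the 6 members labelled CD45- Tom-.

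Few genes were past 2-fold between members of the Tom+ libraries. Of 3411 genes tested, 5 (0.147%) were at least 2-fold higher under the label CD45+ Tom+ and 4 (0.117%) at least 2-fold lower, with a median log2 ratio of -0.00. The higher ones were Gm26870, a predicted gene named after its values were seen (log2 ratio 4.44), Mki67 (2.13, 1.71 to 2.57), Top2a (2.13, 1.70 to 2.57), Fabp4 (1.29, 1.15 to 1.43) and Col3a1 (1.20, 0.79 to 1.60). Mki67 and Top2a are genes of dividing cells. The UMIs of Mki67 and Fabp4 lay in few cells. The 3 members with most UMIs held 66.7% of the 153 Mki67 UMIs under CD45+ Tom+ and 79.4% of the 68 under CD45- Tom+, and for Fabp4 67.5% and 39.8%. Col3a1, a fibrillar collagen of stroma, was lower instead of higher without the members of 4 to 7 rule UMIs (log2 ratio -0.46) and without those under 5000 UMIs (-0.39, an alternative chosen after seeing the data). Fabp4 did not reach 2-fold without marked doublets, with a filter of at least 500 genes and a mitochondrial share under 20%, or after thinning, and its log2 ratio ran from 0.30 to 1.33 over the alternatives. Mki67 ran from 1.30 to 2.82 and Top2a from 1.08 to 3.14. Lower genes were Igfbp5 (-1.84, -2.0 to -1.69), which encodes a binding protein of insulin-like growth factors, Slc41a1 (-1.37, -1.63 to -1.13), a magnesium transporter gene, Spp1 (-1.09, -1.49 to -0.70) and Cox17 (-1.05, -1.43 to -0.69). Of Igfbp5, 39.5% and 50.0% of UMIs under CD45- Tom+ and CD45+ Tom+ lay in 3 members, the highest with 679 and 70 UMIs. Slc41a1 had a UMI in 97 of 169 and 49 of 94 members, with 53.2% and 25.6% of its UMIs in 3 of them. Cox17, which encodes a copper chaperone of cytochrome oxidase, was the evenest of the lower genes, with 7.49% and 15.8% in 3 members. Over the alternatives Igfbp5 ran from -1.98 to -1.29, while Slc41a1 (-1.39 to -0.91), Spp1 (-1.52 to -0.99) and Cox17 (-1.10 to -0.90) each fell short of 2-fold in at least 1. The next genes of the rule did not reach 2-fold, with log2 ratios that included 0.97 for Gdf15, 0.97 for Mzb1 and 0.89 for Stmn1, and -0.84 for Ccdc141, -0.84 for Trove2, -0.83 for S100a4 and -0.80 for Mt2. Mzb1 is a plasma cell gene. The lymphatic identity list had none of 14 genes past the fold, with a median log2 ratio of -0.09. With 1 library on each side there is no spread against which to read these differences.

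**Figure D4:**
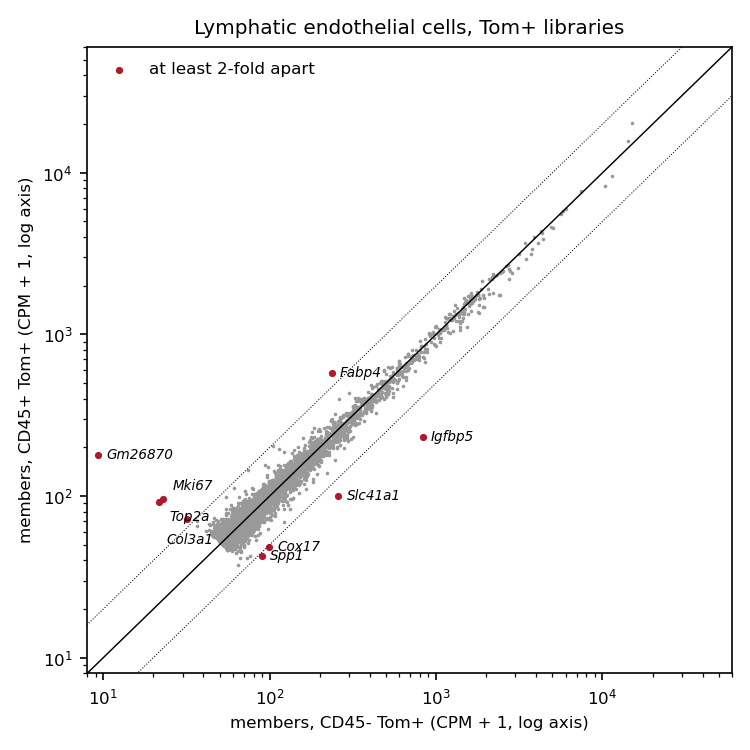
Expression (CPM + 1, log axes) of the tested genes summed over members of the library labelled CD45- Tom+ (horizontal) and CD45+ Tom+ (vertical); the solid line is equality and the dotted lines 2-fold. Red points are the 9 genes past 2-fold, with Igfbp5 at 830.2 and 231 CPM the most abundant of the lower ones.

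Single members were compared after thinning each to 5000 UMIs, which left 242 members, 164 and 78 of the Tom+ libraries labelled CD45- and CD45+, and left out 5 and 16 shallower ones. The 4 genes of the rule were detected in nearly all, which the choice of members fixes. Mmrn1 was detected in 96.7% of them, Prox1 in 96.3%, Flt4 in 94.6% and Reln in 93.8%. Of identity genes outside the rule, Ccl21a was detected in 94.6%, Lyve1 in 84.3% and Pdpn in 62.8%. The median member had 49.5 Ccl21a UMIs and the highest 183. How unevenly a gene was spread was measured as the share of its UMIs in the 24 members with most. This was 19.8% for Mmrn1 and 25.3% for Prox1, and the median over 3415 genes was 43.0%. At the other end stood Vwf with 100%, Mgp, Fmo2, Gdf15, Neo1, Fabp4, Spp1, Procr, Adm, Tmem26, Stmn1 and Stmn2 with 80.0%. Of these 12 genes, 8 were also among the 12 least even without thinning. Vwf came from 8 members, whose mean Ccl21a was 1.38 UMIs against 58.8 in the other 234 and whose mean Mgp, a calcification inhibitor gene, was 19.1 against 0.0726. Their mean Pecam1 was 9 against 3.04. Flt1 was detected in 87.5% of these 8 against 0.855% of the other 234. Prox1 was detected in 50% against 97.9%, Mmrn1 in 25% against 99.1% and Lyve1 in 12.5% against 86.8%. The profile of these 8 thus went against the lymphatic name. Fabp4 had a UMI in 70 members and 122 in the highest, and Neo1, a receptor gene of the netrin and repulsive guidance families, in 37.

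Members also varied along an axis from Lyve1 to Slco2a1, which encodes a prostaglandin transporter. Slco2a1 was singled out after its values were seen. Across the 242 cells, which share libraries, Spearman correlations of thinned counts were -0.54 (-0.52 under CD45- Tom+, -0.56 under CD45+ Tom+) between Lyve1 and Slco2a1 and 0.54 (0.51 under CD45- Tom+, 0.54 under CD45+ Tom+) between Lyve1 and Scn3a. They were 0.57 (0.57 under CD45- Tom+, 0.53 under CD45+ Tom+) between Fn1 and Scn3a and 0.56 (0.59 under CD45- Tom+, 0.49 under CD45+ Tom+) between Scn3a and Angpt2. Clca3a1 and Slco2a1 gave 0.52 (0.52 under CD45- Tom+, 0.49 under CD45+ Tom+), and Fn1 and Clca3a1 -0.53 (-0.51 under CD45- Tom+, -0.56 under CD45+ Tom+). The sign was the same in both libraries for each of these pairs. These are descriptions, with no test. A Slco2a1 UMI was present in 52 of the 242 thinned members, 39 labelled CD45- Tom+ and 13 labelled CD45+ Tom+. Their mean Lyve1 was 4.29 UMIs per 5000 against 20.1 in the 190 without, that of Fn1, which encodes fibronectin, 0.750 against 7.01, that of Scn3a 0.0769 against 3.50 and that of Angpt2 0.250 against 3.21. In the other direction, the same 52 had a mean of 4.58 Plvap UMIs against 1.07, 2.88 of Clca3a1 against 0.500, 7.75 of Apoe against 1.37 and 10.7 of Igfbp5 against 1.73. Ccl21a had a mean of 59.1 against 56.3, but a UMI of it was found in 76.9% of the 52 against 99.5% of the 190. Prox1 was at 3.98 against 5.30. The direction for Lyve1 was the same in both libraries. Mean Lyve1 with and without Slco2a1 was 4.64 and 19.1 under CD45- Tom+, and 3.23 and 21.9 under CD45+ Tom+. Of the 8 members with Vwf, 87.5% also had Slco2a1. Without these 8, the correlation of Lyve1 with Slco2a1 was -0.50 over 234 cells, and mean Lyve1 was 4.96 against 20.1, but mean Mgp, 3.02 against 0.0684 with them, was 0.0889 against 0.0688. Of genes known from valves, Foxc2 had a mean of 0.462 UMIs with Slco2a1 and 0.279 without, and Cldn11 0.135 and 0.258. The reporter was at 10.3 and 7.77, and Cdkn1a at 2.02 and 1.12.

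**Figure D5:**
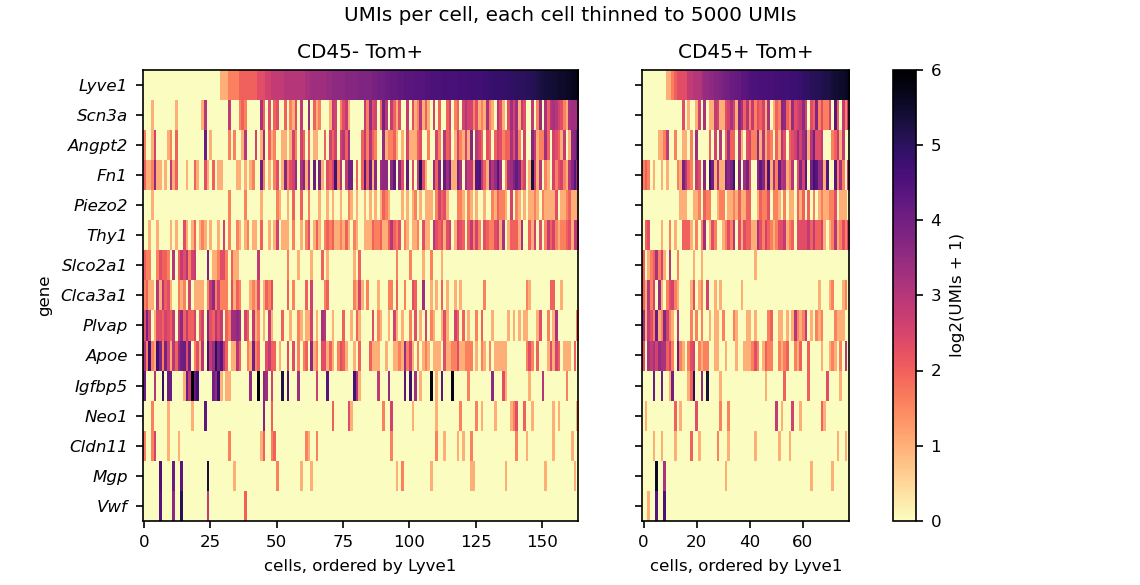
UMIs of 15 genes (rows) in each of the 164 and 78 thinned members (columns) of the Tom+ libraries labelled CD45- (left) and CD45+ (right), ordered within each library by Lyve1; colour is log2(UMIs + 1) at 5000 UMIs per cell. Slco2a1, Clca3a1, Plvap and Apoe darken at the low-Lyve1 end and Scn3a, Angpt2, Fn1 and Piezo2 at the high end, while Vwf is limited to 8 cells.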

How the data were processed

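Droplet-based 3′ single-cell RNA-seq was performed on sorted stromal vascular cells of male mice after Liberase digestion and red cell lysis. The authors aligned the reads to mm10 with Cell Ranger 3.0.2, per the submitters' processing notes, and deposited UMI counts per gene and barcode, which are whole numbers without normalization.

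From the counts, UMIs were summed over cells and divided by the cells' total to give CPM, with exact Poisson intervals. Ratios have conditional exact intervals. Only genes whose mean reached 50 CPM were compared, and a 2-fold ratio is a description without a test. TMM factors came from edgeR 4.0.16 (R 4.3.3). Scrublet was run in scanpy 1.11.5. Other steps used Python 3.11.15, numpy 2.4.6, scipy 1.17.1 and pandas 2.3.3, and plots matplotlib 3.10.9. Single members were compared after thinning to 5000 UMIs. Positions and transcripts came from GENCODE vM21 (GRCm38), in which 31011 of 31054 features were found.

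The members and the 35 gene lists were chosen with earlier results of these data known. Named genes were those of the lists, the 25 with the largest smaller-of-pair ratio to other cells, the 8 highest and 8 lowest between the Tom+ libraries and the 12 least evenly spread. Mitochondrial, ribosomal protein, immunoglobulin and predicted genes were left out of the last 3 sets. Some genes that the rule names are not reported here. Other thresholds, filters and scalings were tried as alternatives. The ratios were tested on simulated data with 200 changed genes among 2256 (members against other cells, label CD45- Tom+) and among 3415 (between the Tom+ libraries). The planted changes were all well past 2-fold, in counts with Poisson error only. In each, 100% of the changed genes were recovered, which the planted size made near certain. The check covers the computation and not the spread between cells or libraries.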

Additional observations from a re-analysis of the deposited data

Results flagged for a closer look

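Barcodes outside the quality filter also passed the member rule, and no comparison above uses them. There were 34 in the library labelled CD45- Tom+, 9 in CD45- Tom-, 20 in CD45+ Tom+ and 26 in CD45+ Tom-. They were singled out because a lymphatic signal appears in data that the comparisons leave out. In the order of the libraries, 4, 6, 5 and 19 of them had too few genes, 15, 2, 4 and 4 had 7000 genes or more, and 15, 1, 11 and 3 had a mitochondrial share of 8% or more. Their median depth was 19880, 841, 4174.5 and 779.5 UMIs. Groups of 1 library allow no search for a library that stands apart.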

How the results depend on the processing

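Values that answer a comparison kept their size under 101 alternatives and moved by more than the counting interval, or by over 1.5 times for a count, under 37. For single genes 561 were the same, 388 moved and 4 changed sign. Among shares, that of CD45- Tom+ was 3.09% with Ptprc and Pdgfra at 0, 4.95% with no limit on them, 2.82% with at least 500 genes and a mitochondrial share under 20%, and 4.83% after thinning. That of CD45+ Tom+ was 3.84% with both genes at 0 and 3.59% with the looser filter. Without marked doublets the Tom- shares were 0.0272% and 0.0228%. Genes higher in members than in other cells numbered 2723 and 2772 (CD45- Tom+, CD45+ Tom+) at a mean of 10 CPM, 215 and 198 at 200 CPM, and 499 and 488 with TMM factors. The lower ones numbered 889 and 864, 86 and 82, and 533 and 524 in the same order, and 470 and 465 without immunoglobulin genes, chosen after seeing the data. Between the Tom+ libraries, 69 genes were higher at 10 CPM, 1 at 200 CPM, 12 by means of per-cell CPM, 3 without shared barcodes and 2 with TMM factors. The lower ones numbered 48 at 10 CPM, 1 at 200 CPM, 17 with the looser filter and 14 after thinning. The log2 ratio of Col3a1 turned to -0.46 with at least 8 rule UMIs, -1.88 with the looser filter, -1.60 after thinning and -0.39 without members under 5000 UMIs (chosen after seeing the data). tdTomato under CD45- Tom+ was 1687 CPM by per-cell means, 1413 with the looser filter and 1548 without shared barcodes, and 1351 under CD45+ Tom+ with the looser filter. Cdkn2a under CD45- Tom+ was 17.1 CPM with that filter. Genes with at least 50% of their UMIs in the 10% of members with most numbered 794, and 120 without thinning. Apart from the gene minimum, which sets how many genes are compared, the cause was not tested. No paired analysis was possible because each group is 1 library. The 6 and 21 members of the Tom- libraries limit any statement on lymphatic cells there, and sparse genes such as Cdkn2a rest on few UMIs.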
